A study of Mus musculus with 8 samples.

Results

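The genes of the proteasome were followed in kidney cells of p16-tdTomato mice that were fed an adenine-rich diet to bring about chronic kidney disease (CKD). Members were the rows of the count table named Psma, Psmb, Psmc, Psmd, Psme, Psmf or Psmg with a number, apart from the immunoproteasome genes Psmb8, Psmb9 and Psmb10. They came to 47 of 25240 rows, of which 45 had enough counts to be tested, among 14284 tested genes. The data were raw RNA-seq counts from 8 libraries, 4 of Tomato-positive and 4 of Tomato-negative cells. Every mouse carried the p16-tdTomato genotype, named for the senescence marker p16 and a red fluorescent protein, and every library was labelled as CKD, so all groups share the reporter and the diet. No library of a healthy kidney was analysed here, and no source used here gives the animals' age, how the reporter was built, how cells were sorted or whether animals were pooled. Each of the identifiers CKD523_2, CKD523_3, CKD627_1 and CKD627_2 in the titles is shared by 1 positive and 1 negative library, and values are given in that order throughout. The labels do not say what the prefixes CKD523 and CKD627 stand for, nor that libraries came from separate animals, so p-values measure the spread between these libraries.

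The proteasome degrades proteins that carry ubiquitin. Its core particle is a barrel of stacked rings: the alpha subunits (Psma genes) form the outer rings and the gate, and the beta subunits (Psmb genes) form the inner rings that hold the catalytic sites. The regulatory particle caps the barrel; the ATPases of its base (Psmc genes) unfold the substrate, and the lid (most Psmd genes) removes ubiquitin. Cells make the subunits in fixed proportions, with assembly chaperones, and the transcription factor NFE2L1 is known to raise their genes when the proteasome is inhibited, through antioxidant response elements. In the kidney tubule, cells with a heavy protein load rely on the proteasome together with lysosomes.

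NFE2L1 and its relative NFE2L2 bind the antioxidant response element, whose core is TGACNNNGC. This motif was searched on both strands in RefSeq windows (build GRCm38.p6) from 250 bases before to 50 bases after each start site, which were at hand for 39 of the 47 members, some with more than 1 start site. It was present in a window of 6 of these 39 members (15.4%), namely Psmb5, Psmb6, Psmc6, Psmd9, Psmd12 and Psme4, against 3781 of 27025 genes with a window (13.99%). The core and the regulatory particle had 2 holders each, of 12 and 14 members with a window. The element of Psme4 begins at base -7 and runs past the start, so its sequence is not printed. For the other holders described in detail below, the 250 bases before the start follow. They are written 5′ to 3′ on the gene's strand, with the element in capitals.
Psmb5: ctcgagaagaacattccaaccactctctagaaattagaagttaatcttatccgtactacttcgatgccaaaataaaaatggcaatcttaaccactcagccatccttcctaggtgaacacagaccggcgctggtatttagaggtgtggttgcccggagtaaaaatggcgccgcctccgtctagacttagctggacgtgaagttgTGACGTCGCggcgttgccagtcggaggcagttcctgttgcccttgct
Psmb6: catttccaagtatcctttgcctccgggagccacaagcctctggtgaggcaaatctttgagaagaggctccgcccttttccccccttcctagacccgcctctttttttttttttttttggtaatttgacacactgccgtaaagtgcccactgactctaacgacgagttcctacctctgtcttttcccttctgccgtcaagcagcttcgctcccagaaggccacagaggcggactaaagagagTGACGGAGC
Psmc6: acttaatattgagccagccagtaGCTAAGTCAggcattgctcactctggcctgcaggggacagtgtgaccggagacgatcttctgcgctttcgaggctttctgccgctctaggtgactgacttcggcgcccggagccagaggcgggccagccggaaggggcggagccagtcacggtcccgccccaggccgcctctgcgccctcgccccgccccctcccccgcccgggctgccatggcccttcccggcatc
Psmd9: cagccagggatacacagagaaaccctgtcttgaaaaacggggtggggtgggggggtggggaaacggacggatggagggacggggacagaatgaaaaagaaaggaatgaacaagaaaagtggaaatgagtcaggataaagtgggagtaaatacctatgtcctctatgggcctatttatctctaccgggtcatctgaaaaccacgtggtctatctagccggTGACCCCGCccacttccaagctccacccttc
Psmb5 lies on the minus strand of chromosome 14 (window chr14:54617996-54618245) and its element begins at base -47 counted from the start site. The windows of Psmb6 (chr11:70525107-70525356), Psmc6 (chr14:45329574-45329823) and Psmd9 (chr5:123227940-123228189) are on the plus strand, with the element beginning at bases -9, -227 and -31. In Psmc6 it reads on the opposite strand. The CCAAT box was found for 14 of 39 members (35.9%) against 41.1% of all genes, for 7 of 12 in the core and 4 of 14 in the regulatory particle. TATAAA was found for 3 of 39 members (7.69%) against 15.7% of all genes. These matches describe the letters only.

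Total counts per library were 13474439 to 19886202, and the tdTomato row held 54445 to 82396 counts in Tomato-positive libraries, against 1215 to 2588 in Tomato-negative libraries. Levels are given as CPM, each library's counts scaled to a common depth, after scaling with TMM factors of 0.910 to 1.07. In the library with the lowest scaled depth 3 counts, the floor that a count of 0 allows, came to 0.231 CPM; it covers counting error only. All libraries were labelled as proximal tubular epithelial cells. The 12 proximal tubule markers were present in every library, with 4447 to 13653 summed CPM in positive and 6550 to 28844 in negative libraries. Markers of other segments were present as well. Those of the collecting duct's principal cells summed to 1055 to 5382 CPM in positive and 231 to 2346 CPM in negative libraries. Those of the thick ascending limb summed to 1808 to 6527 CPM in positive and 4068 to 13993 CPM in negative libraries. In such bulk samples fewer cells of a type and less RNA per cell cannot be told apart.

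No proteasome member passed the test between Tomato-positive and Tomato-negative cells, yet nearly all lay on the same side. The log2 difference was below 0, that is lower in positive cells, in 42 of 45 members with or without pairing by identifier, against 49.5% of all tested genes in the paired fit. The median member lay at -0.27 in both fits, and the median of all genes at 0.01. With edgeR's quasi-likelihood test and Benjamini-Hochberg adjustment over all genes, 0 of 45 members had an adjusted p under 0.05 in the unpaired fit, against 0.595% of all tested genes. The paired fit also called 0 of 45, against 7.62% of all genes. At an unadjusted p under 0.05, 12 members were lower in the unpaired fit (8.98% of all genes) and 12 in the paired fit (12.3% of all genes), and none was higher in either. In the unpaired comparison DESeq2 and limma-voom called 0 members as well, against 7% and 0.644% of all genes. They had 17 and 12 members at an unadjusted p under 0.05, for which no share over all genes is at hand. In the paired comparison DESeq2 called 1, Psma6, against 14.2% of all genes, and limma-voom 0, against 9.72%.

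The differences were small and well bounded. The 95% bounds of the paired log2 difference lay between -1 and 1 for 41 of 45 members, against 62.6% of all tested genes, so that for these a change of 2-fold lies outside the bounds. The median standard error was 0.16 for members and 0.20 for all genes. Across the 8 libraries the SD of log2 CPM had a median of 0.27 for members and 0.39 for all genes. In 11 members every positive library lay below every negative one, as in 6.48% of all genes, and 21 members were lower in each of the 4 pairs (17.6% of all genes). Those 11 were Psma2, Psma6, Psmb4, Psmb5, Psmb7, Psmc3, Psmc6, Psmd9, Psmd13, Psmf1 and Psmg4.

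**Figure D1:**
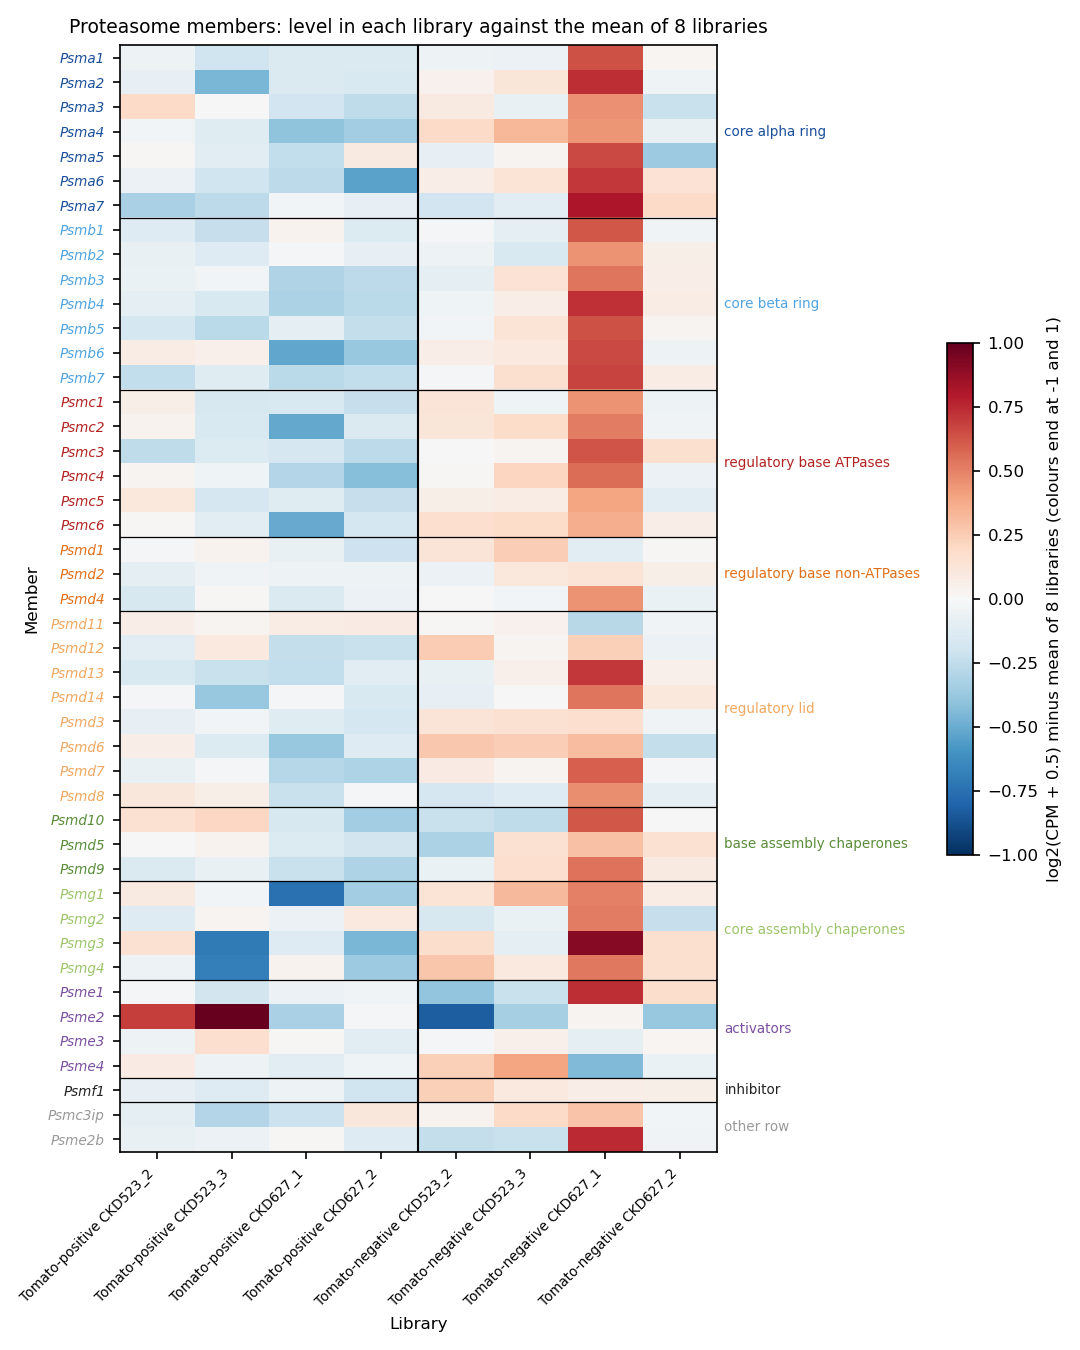
Level of the 45 tested members in each library (columns, Tomato-positive left of the line and Tomato-negative right), as log2(CPM + 0.5) minus the member's mean over the 8 libraries; colours end at -1 and 1. The column of Tomato-negative CKD627_1 is red in nearly all rows, and holds the highest value of 38 of the 45 members.

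Per kilobase of annotated exon, the core and the regulatory particle were at like levels. The lengths used join all annotated exons, so these levels and their order depend on the annotation. The median level over the 8 libraries had a median of 36.7 CPM per kb over the 14 tested core members (range 5.11 to 79.2) and of 35.3 over the 17 regulatory members (range 11.0 to 85.5). By this median the base ATPase Psmc5 was highest, at 81.1 ± 8.44 CPM per kb in positive and 94.1 ± 14.3 in negative cells (SD, n = 4 each). Psmb4, a beta subunit without catalytic activity, was second by the same median and above Psmc5 in negative cells, at 71.9 ± 5.07 in positive and 98.1 ± 26.6 in negative cells. Psma5 and Psma3 were the lowest core members, at 5.11 and 7.42 CPM per kb. Both have processed pseudogenes with at least 95% identity over at least 300 bases. Such copies, overlapping genes counted, were found for 13 of the 47 members, and their reads may have been lost or split. Psmb5, Psmc1 and Psmd2, at 69.9, 66.3 and 54.9 CPM per kb, are among the 13. Whether copies lowered any level was not tested. Psma8, the testis form of an alpha subunit, had 26 counts in all positive and 5 in all negative libraries. Psmb11, the thymus form of the chymotrypsin-like subunit, had 12 and 4. Both were left untested.

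All 14 tested core members had a log2 difference below 0, and none passed the test. Lower in each of the 4 pairs were 8 of the 14, against 17.6% of all genes. Psma3 and Psma5, named for their values, were each higher in the positive library in 2 of 4 pairs. Psma6, an alpha-ring subunit (chr12:55384222-55418454, plus strand), had the smallest p of all members in the paired fit. It stood at 82.8, 75.2, 71.9 and 59.3 CPM in Tomato-positive libraries, against 90.7, 95.05, 142 and 95.3 CPM in Tomato-negative libraries. The groups did not overlap, and negative CKD627_1 was far above the others. The paired log2 difference was -0.53 ± 0.17 (SE), with an adjusted p of 0.0874 in edgeR. Psma4, another alpha-ring subunit, had 73.1, 68.2, 56.3 and 58.5 CPM in positive libraries and 85.2, 93.7, 101 and 70.8 CPM in negative libraries. Each positive library was below its partner, but the groups overlapped, and the paired difference was -0.45 ± 0.15 (adjusted p = 0.104, edgeR). A pseudogene, Gm6542, matches 783 bases of the Psma4 transcript at 96.8%. The other 5 alpha-ring members tested ranged between -0.43 (Psma2) and -0.13 (Psma3).

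The catalytic subunits of the beta ring had like values. In GENCODE's annotation of GRCm38 they lie at chr14:54614119-54618022 on the minus strand (Psmb5), chr11:70525367-70527858 on the plus strand (Psmb6) and chr2:38588036-38644087 on the minus strand (Psmb7). Psmb5, the chymotrypsin-like subunit and the main target of proteasome inhibitors, is the first of the promoters printed above. It had 57.9, 54.2, 61.5 and 55.6 CPM in positive libraries, against 64.2, 72.0, 102 and 66.7 CPM in negative libraries. The groups did not overlap, and the paired difference was -0.39 ± 0.15 (adjusted p = 0.139, edgeR). A pseudogene, Gm3375, matches 796 bases of its transcript at 98.9%, so its counts are uncertain. Psmb7, the trypsin-like subunit, had 111, 121, 109 and 111 CPM in positive libraries, against 131, 147, 211 and 139 CPM in negative libraries. Again the groups were apart, with a paired difference of -0.45 ± 0.16 (adjusted p = 0.120, edgeR). Psmb6, the caspase-like subunit, had 123, 121, 81.5 and 89.7 CPM in positive libraries, against 123, 125, 185 and 113 CPM in negative libraries. Here both CKD627 positive libraries were lower than their partners, while the CKD523 libraries were nearly level. Its paired difference was -0.39 ± 0.20 (adjusted p = 0.277, edgeR), and -0.13 without pair CKD627_1. The other 4 tested beta subunits ranged between -0.41 (Psmb4) and -0.15 (Psmb2).

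In the regulatory particle 16 of 17 members had a log2 difference below 0, and none passed the test. Lower in each of the 4 pairs were 8 of the 17, against 17.6% of all genes. The 6 ATPases of the base were closest to the core, with paired log2 differences of -0.41 to -0.21 and a median of -0.38. Psmc3 had 132, 144, 140 and 132 CPM in positive libraries, against 157, 161, 244 and 177 CPM in negative libraries. The groups did not overlap, and the paired difference was -0.41 ± 0.15 (adjusted p = 0.124, edgeR). Psmc6, whose promoter window holds the element farthest from the start among those printed, had 91.5, 83.8, 63.6 and 80.1 CPM in positive libraries. Its negative libraries had 102, 103, 117 and 95.1 CPM, all above the positive ones (paired difference -0.39 ± 0.16, adjusted p = 0.160, edgeR). The scaffold and receptor subunits of the base differed less, with a median of -0.13 over 3 members. Psmd1, a large scaffold, had 162, 169, 156 and 143 CPM in positive and 180, 196, 152 and 166 CPM in negative libraries. In pair CKD627_1 the positive library was the higher one, and the groups overlapped (-0.13 ± 0.13, adjusted p = 0.546, edgeR). Psmd4, the base's ubiquitin receptor, had 111, 125, 112 and 119 CPM in positive and 123, 122, 169 and 118 CPM in negative libraries, with -0.18 ± 0.15 (adjusted p = 0.504, edgeR).

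In the lid 7 of 8 members lay below 0, with a median of -0.26. Psmd8, named for its values, was among these 7 at -0.03 ± 0.18. It was higher in the positive library in 3 of 4 pairs, and at -0.69 in pair CKD627_1. Psmd13, a scaffold subunit, had 87.8, 83.4, 82.4 and 90.7 CPM in positive and 92.5, 101, 160 and 101 CPM in negative libraries, which did not overlap. Its paired difference was -0.36 ± 0.17 (adjusted p = 0.224, edgeR), and -0.17 without pair CKD627_1; its transcript shares 329 bases with Sirt3. Psmd7, the inactive partner of the deubiquitinase Psmd14, had 76.7, 79.8, 66.2 and 65.0 CPM in positive and 85.6, 82.3, 122 and 79.7 CPM in negative libraries. Each positive library was below its partner, and the groups overlapped narrowly (-0.35 ± 0.17, adjusted p = 0.236, edgeR). Psmd11, a lid scaffold whose raised level is known to increase proteasome assembly in human embryonic stem cells, was the only lid member above 0. It had 71.8, 69.7, 72.0 and 72.4 CPM in positive libraries, against 68.9, 70.5, 56.4 and 66.6 CPM in negative libraries, and a paired difference of 0.13 ± 0.13 (adjusted p = 0.592, edgeR). It was named after its values were seen, and negative CKD627_1 was its lowest library. A pseudogene, Gm14048, matches 1269 bases of its transcript at 98.0%, and A730017L22Rik 1501 bases at 97.9%, so its counts are uncertain.

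The assembly chaperones held the lowest difference of any member. Psmg1 to Psmg4 form the pairs that build the alpha ring, and all 4 lay below 0. Psmg2, named for its values, was nearly level at -0.03 ± 0.20. It was higher in the positive library in 3 of 4 pairs, and at -0.57 in pair CKD627_1. Psmg3 had 13.8, 7.43, 11.3 and 8.93 CPM in positive libraries, against 14.2, 11.6, 23.8 and 13.9 CPM in negative libraries. Each positive library was below its partner, although the groups overlapped, and the paired difference was -0.60 ± 0.23 (adjusted p = 0.151, edgeR). Its partner Psmg4 had 13.7, 8.70, 14.6 and 11.0 CPM in positive libraries, against 17.4, 15.2, 20.7 and 16.0 CPM in negative libraries, with no overlap. The paired difference of Psmg4 was -0.55 ± 0.19 (adjusted p = 0.121, edgeR), and -0.56 without pair CKD627_1, so its size did not rest on that pair. The chaperones of the base, Psmd5, Psmd9 and Psmd10, also lay below 0. Psmd9 had 29.7, 31.2, 28.0 and 26.5 CPM in positive and 31.4, 37.0, 48.1 and 35.0 CPM in negative libraries. The groups were just apart (-0.38 ± 0.16, adjusted p = 0.194, edgeR). Psmd5 had 52.8, 54.3, 48.0 and 46.4 CPM in positive and 42.4, 58.7, 64.9 and 58.9 CPM in negative libraries, which overlapped (-0.15 ± 0.16, adjusted p = 0.619, edgeR).

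**Figure D2:**
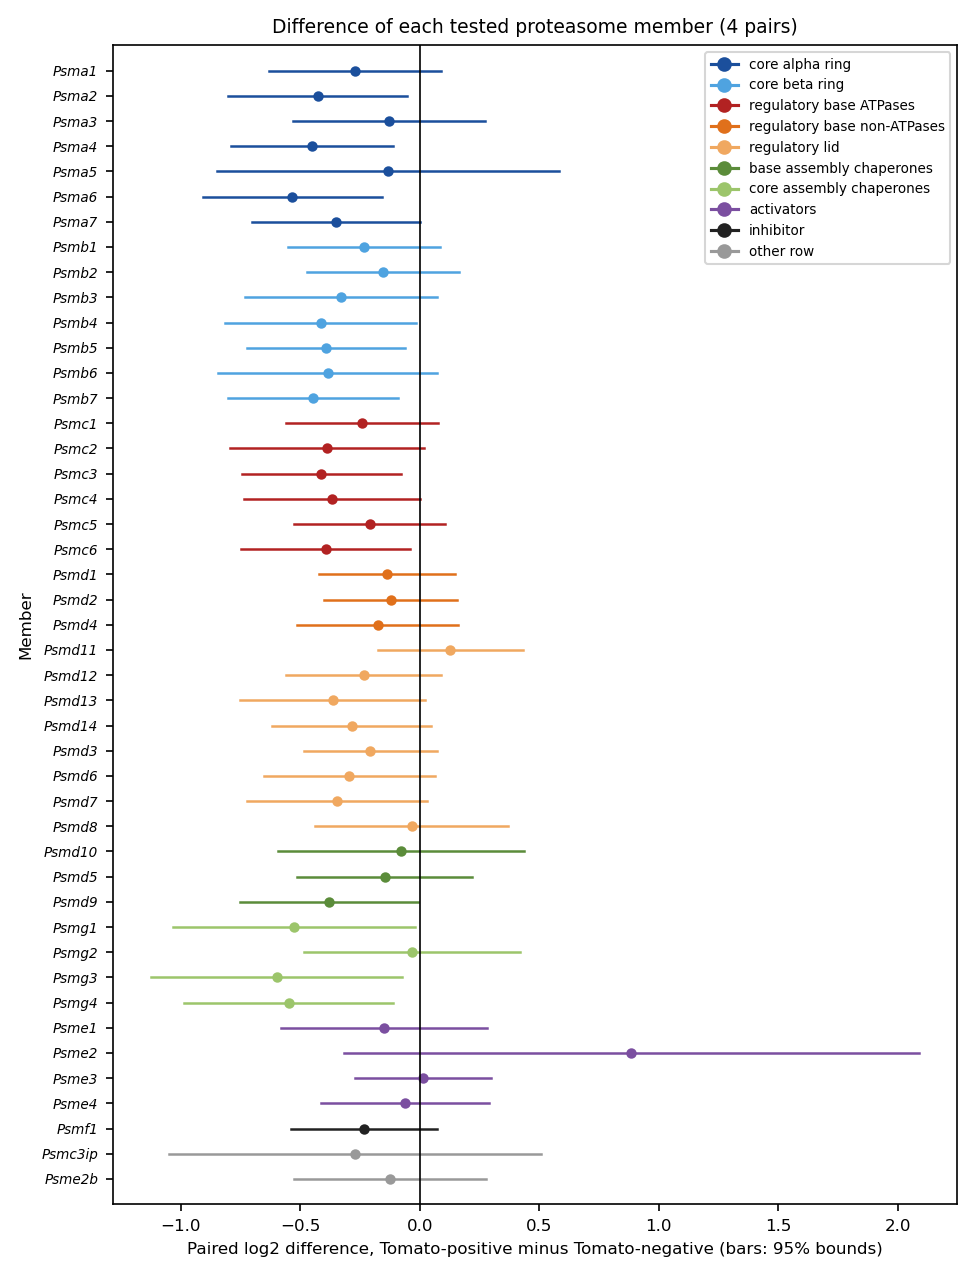
Paired log2 difference (Tomato-positive minus Tomato-negative, points) with 95% bounds (bars) of the 45 tested members, coloured by class. The points of 42 members lie left of 0, from -0.60 (Psmg3) up, and Psme2 stands alone at 0.89 with the widest bounds.

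Activators open the gate of the core in place of the regulatory particle, and 2 of the 4 lay below 0, with a median of -0.02. Psme1, the alpha chain of the activator that interferon gamma induces, had 104, 92.7, 101 and 103 CPM in positive and 80.4, 90.2, 177 and 119 CPM in negative libraries. Positive libraries were below their partners in CKD627 and above them in CKD523 (paired -0.15 ± 0.19, adjusted p = 0.671, edgeR). Psme2, its beta chain, had the highest difference of all members, at 4.85, 6.86, 2.14 and 2.77 CPM in positive libraries, against 1.36, 2.12, 2.87 and 2.04 CPM in negative libraries. The CKD523 positive libraries were above all others, and the paired difference was 0.89 ± 0.53 (adjusted p = 0.337, edgeR). Psme2b, a gene on chromosome 11 whose annotated copy matches Psme2 at 99.4% over 794 bases, took most of the reads of the pair. It had 64.1, 64.8, 68.2 and 61.6 CPM in positive and 57.1, 57.9, 113 and 65.8 CPM in negative libraries (-0.12 ± 0.18, adjusted p = 0.707, edgeR). No source used here says how the counter split reads between them. Their sum was 68.9, 71.7, 70.4 and 64.4 CPM in positive and 58.5, 60.0, 116 and 67.8 CPM in negative libraries, and Psme2 made up 3.04% to 9.57% of the sum in positive and 2.33% to 3.53% in negative libraries.

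Psme3, the nuclear activator, differed by 0.01 ± 0.13 and Psme4, the large activator of spermatogenesis and DNA repair, by -0.06 ± 0.15. Psmf1, an inhibitor of the core in the test tube, had 38.6, 37.5, 39.6 and 35.5 CPM in positive libraries, against 48.3, 44.0, 42.8 and 42.7 CPM in negative libraries. The groups did not overlap, and negative CKD627_1 was not its highest library. Its paired difference was -0.23 ± 0.14 (adjusted p = 0.322, edgeR), and -0.27 without pair CKD627_1. Psmc3ip, a partner of meiotic recombination that only shares the name stem, was low at 4.15, 3.57, 3.79 and 4.90 CPM in positive and 4.62, 5.21, 5.57 and 4.39 CPM in negative libraries (-0.27 ± 0.34, adjusted p = 0.668, edgeR).

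The core particle lay lower than the regulatory particle in the comparison of Tomato groups, but hardly so without 1 pair of libraries. The median log2 difference was -0.40 for core and -0.25 for regulatory members in the unpaired fit, and -0.37 and -0.24 in the paired fit. Core minus regulatory was therefore -0.14 and -0.13. Summed over the 14 core members, levels were 1165, 1109, 1093 and 1069 CPM in positive libraries, against 1241, 1297, 1978 and 1283 CPM in negative libraries. The 17 regulatory members summed to 2051, 2012, 1854 and 1882 CPM in positive libraries, against 2176, 2233, 2696 and 2082 CPM in negative libraries. Both sums were lower in every positive library than in every negative one, by the least margin between negative CKD627_2 and positive CKD523_2 in the regulatory particle. Mean log2 CPM of core minus that of regulatory members was -0.70, -0.74, -0.66 and -0.71 in positive libraries, against -0.72, -0.69, -0.39 and -0.65 in negative libraries. Negative CKD627_1 thus had the highest value in the balance of the particles as well as in their levels. Without that library core minus regulatory was -0.017 in the unpaired fit, and without its pair -0.0073 in the paired fit. The median of all members was then -0.19 and -0.17, and 36 of 45 lay below 0 in each.

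**Figure D3:**
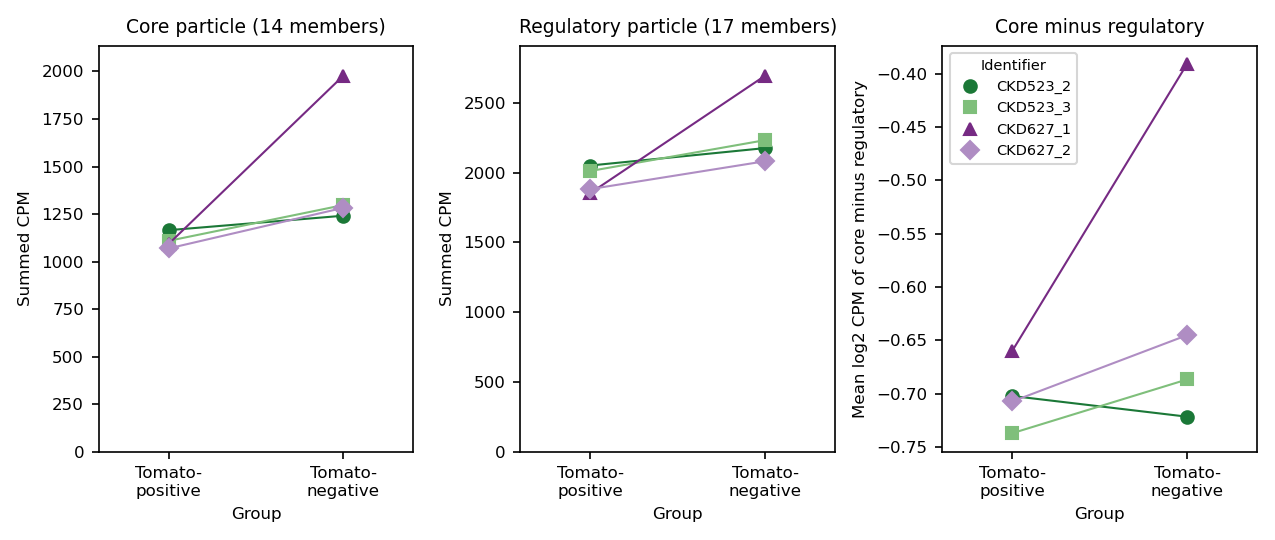
Summed CPM of the 14 core members (left) and the 17 regulatory members (middle), and mean log2 CPM of core minus regulatory members (right), for each library, Tomato-positive left and Tomato-negative right; lines join libraries of 1 identifier. Negative CKD627_1 lies above the other 7 libraries in each plot, at 1978 CPM, 2696 CPM and -0.39.

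Pair by pair, the members' median difference was -0.07, -0.17, -0.73 and -0.17, with 29, 34, 41 and 36 of 45 members lower in the positive library. The median of all genes was 0.03 in pair CKD627_1 and nearer to 0 in the other pairs. Members took 0.369% to 0.383% of the counts of positive libraries, against 0.577% in negative CKD627_1 and 0.383% to 0.426% in the other negative libraries. Of the 45 members 38 had their highest value of all 8 libraries in negative CKD627_1, against 21.5% of all tested genes. The 7 that did not were Psmd1, Psmd11, Psmd12, Psme2, Psme3, Psme4 and Psmf1. Outside this pair 22 members were lower in all 3 remaining pairs, against 23.3% of all genes.

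Negative CKD627_1 also differed from the others by transcript length. Its log2 level against the mean of the other 7 libraries fell with exon length across 14040 genes (Spearman's rho -0.46, across genes of the same libraries, which are not independent). The median was 0.60 in genes of up to 1500 bases and -0.36 in genes over 6000 bases. Among members the same medians were 0.71 in 9 genes and -0.03 in 6 genes. The paired log2 difference rose with length over all genes (rho 0.35) and little over members (rho 0.15). Core members were shorter, with a median of 2335 bases of exon, than regulatory members with 2820. With a correction of each library for length, chosen after these values were seen, the members' median was -0.20 in the unpaired and -0.19 in the paired fit. Core minus regulatory was then -0.024 and -0.029, and 35 and 34 members lay below 0. What set this library apart was not tested.

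**Figure D4:**
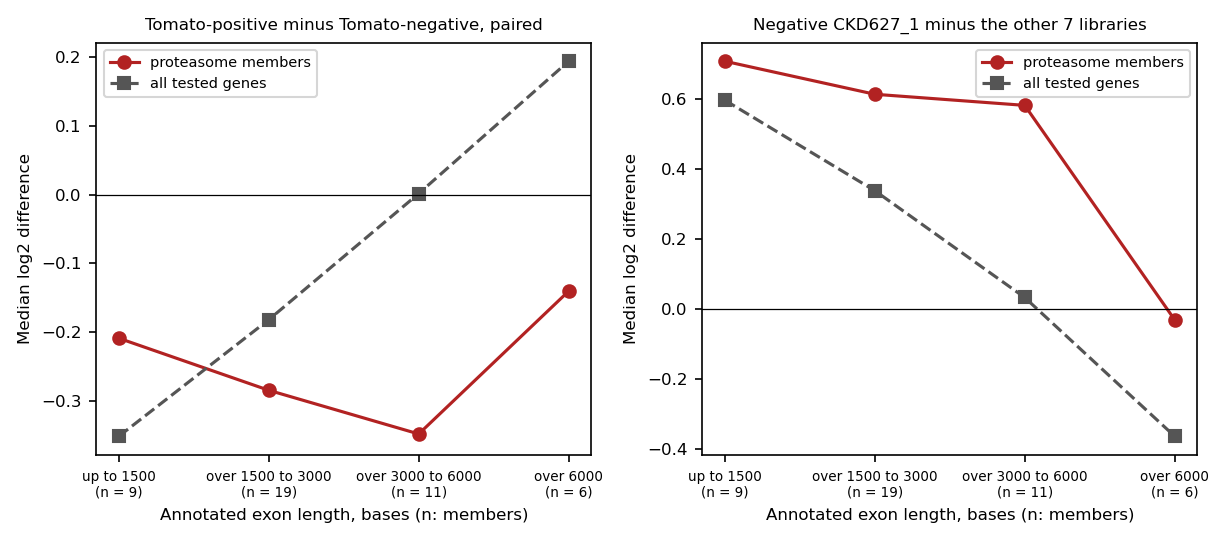
Median log2 difference by annotated exon length, for proteasome members (circles; their number under each bin) and all tested genes (squares): paired Tomato-positive minus Tomato-negative (left), and negative CKD627_1 minus the mean of the other 7 libraries (right). In genes over 3000 and up to 6000 bases the paired median was -0.35 for 11 members and 0.00 for all genes, while in the shortest genes it was -0.21 for members and -0.35 for all genes.

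Within the prefixes, the difference was larger in CKD627, where pair CKD627_1 stood out, but was not shown to differ between them. Members' median log2 difference was -0.41 in CKD627 and -0.14 in CKD523, with 42 and 34 of 45 below 0. By pair it was -0.73 in CKD627_1 but -0.17 in CKD627_2, near the -0.17 of CKD523_3, and -0.07 in CKD523_2. The values for CKD627 thus lean on 1 pair. In 33 members it was below 0 in both, against 31.8% of all genes. In the core particle the medians were -0.53 in CKD627 and -0.13 in CKD523, and in the regulatory particle -0.32 and -0.14, so that core and regulatory members were level in CKD523. For 39 of 45 members the difference was lower in CKD627, yet the test of the difference between prefixes (edgeR) called 0 members, against 0.14% of all genes. At an unadjusted p under 0.05 it held 4 members, against 13.8% of all genes: Psma6, Psmb6, Psmd10 and Psme1, of which Psmd10 is named for this value. Psmd10, an oncoprotein and chaperone of the base, had 38.0, 39.6, 30.5 and 26.7 CPM in positive libraries, against 29.3, 28.7, 52.8 and 34.3 CPM in negative libraries. The log2 difference was -0.58 in CKD627, lower in both positive libraries, and 0.42 in CKD523, higher in both, a difference of -0.999 ± 0.290 (adjusted p = 0.189, edgeR). With each prefix fitted alone, 3 members passed in CKD627 (Psma6, Psmb4 and Psmb6, all lower) and 2 in CKD523 (Psma2, lower, and Psme2, higher). These fits called 9.35% of all genes in CKD627 and 22.2% in CKD523, so the members' shares were below those of all genes. Each such fit rests on 2 pairs.

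**Figure D5:**
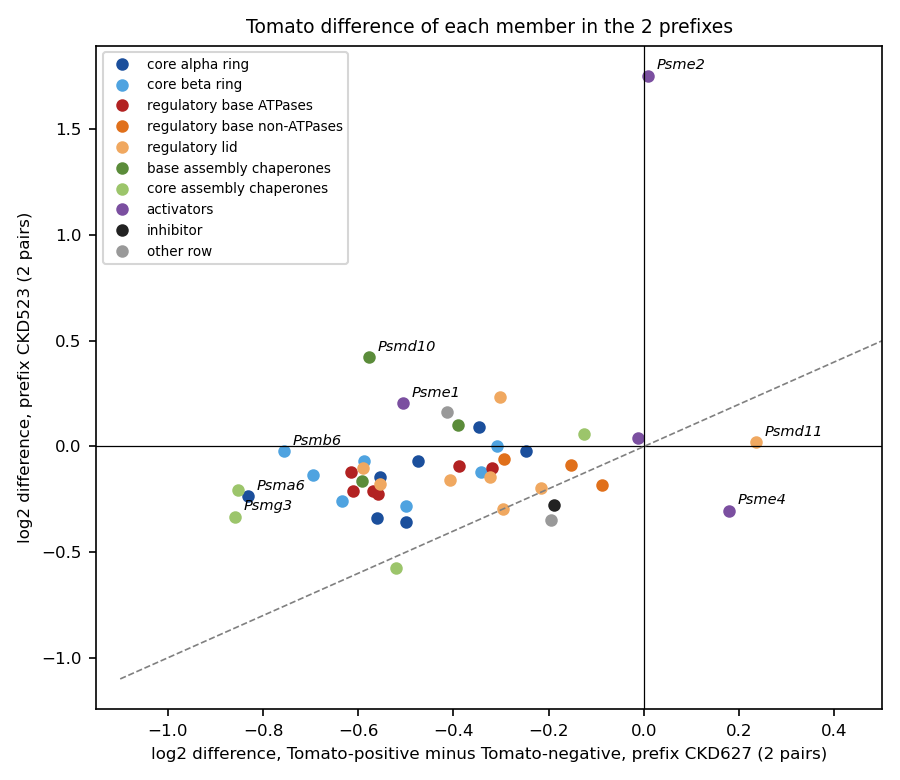
Log2 difference (Tomato-positive minus Tomato-negative) of each tested member in prefix CKD627 (horizontal) against prefix CKD523 (vertical), with the line of equal differences dashed. Most points lie above the dashed line and left of 0, and Psme2 is at 0.01 in CKD627 and 1.75 in CKD523.

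No member passed edgeR's main test between the prefixes, with TMM scaling, the filter on low counts, all 8 libraries and no length correction. With the Tomato group as a covariate, edgeR called 0 of 45 members between CKD627 and CKD523, against 21.1% of all genes. At an unadjusted p under 0.05 there were 3 members, Psma7, Psme1 and Psme4, against 32.3% of all genes. The median size of the log2 difference was 0.13 for members and 0.31 for all genes. Psma7, an alpha-ring subunit, was nearest to the threshold. It had 134 and 129 CPM in positive CKD627 and 238 and 156 CPM in negative CKD627 libraries, against 108 and 113 CPM in positive and 119 and 126 CPM in negative CKD523 libraries. The log2 difference between CKD627 and CKD523 was 0.46 ± 0.16 (adjusted p = 0.0564, edgeR), and every CKD627 library was above every CKD523 library. It passed with DESeq2 (adjusted p = 0.0334), where 25.9% of all genes passed, and without a filter on low counts (17.8% of all genes). It also passed with upper-quartile factors (21.4% of all genes) and with library size only (23.4%), where Psme1 passed too. Psme1 was next among the higher ones (0.43 ± 0.18, adjusted p = 0.126, edgeR), followed by Psme2b (0.32 ± 0.19, adjusted p = 0.27, edgeR). Among the lower ones Psme4 had 119 and 124 CPM in positive CKD627 and 94.2 and 122 CPM in negative CKD627 libraries, against 135 and 123 CPM in positive and 151 and 168 CPM in negative CKD523 libraries. Its difference was -0.32 ± 0.14 (adjusted p = 0.139, edgeR). Psmd6, a lid subunit, had 66.2 and 78.8 CPM in positive CKD627 and 107 and 73.4 CPM in negative CKD627 libraries, against 90.5 and 78.5 CPM in positive and 104 and 103 CPM in negative CKD523 libraries. By p-value Psmd1 and Psmd6 followed Psme4, at -0.19 ± 0.11 (adjusted p = 0.259) and -0.21 ± 0.14 (adjusted p = 0.356, edgeR). Without negative CKD627_1, Psma4 (-0.32, adjusted p = 0.0466) and Psmb6 (-0.37, adjusted p = 0.0373) passed as lower in CKD627 and Psma7 did not, in a fit that called 21.8% of all genes.

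The immunoproteasome subunits Psmb8, Psmb9 and Psmb10 replace Psmb5, Psmb6 and Psmb7 under interferon. None of the 3 passed the test between Tomato groups in either fit, and all had paired log2 differences above 0 (0.30 to 0.67). Psmb10 had 42.8, 38.1, 43.6 and 29.1 CPM in positive libraries, against 20.8, 18.8, 53.9 and 33.8 CPM in negative libraries. Positive CKD627 libraries were below their partners and positive CKD523 libraries above, with log2 differences of -0.26 in CKD627 and 1.03 in CKD523 (adjusted p of the difference between prefixes 0.103, edgeR). Psmb8 was higher in CKD627 than in CKD523 (0.95 ± 0.22, adjusted p = 0.00887, edgeR). Per kilobase, Psmb10 made up 43.6%, 38.7%, 44.4% and 34.5% of the sum of Psmb7 and Psmb10 in positive libraries, against 24.2%, 20.4%, 33.9% and 32.8% in negative libraries. The share was higher in every positive library than in every negative one. The lengths used join all annotated exons, 1705 bases for Psmb10 and 3421 for Psmb7. The size of this share and of those below therefore depends on the annotation. At the chymotrypsin-like position the share of Psmb8 was 10.01%, 7.48%, 10.5% and 13.2% in positive libraries, against 5.00%, 4.09%, 8.18% and 10.3% in negative libraries. At the caspase-like position Psmb9 made up 2.58% to 7.24% in positive and 1.19% to 3.70% in negative libraries, higher in each positive library than in its partner.

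Lists of genes that serve the proteasome are read against the 7.62% of all genes that the paired fit called. Of 9 other subunits and partners none passed; Pomp, the maturation factor of the core, lay at -0.45 ± 0.18 (adjusted p = 0.168, paired edgeR), and Sem1, a small lid subunit, at -0.48 ± 0.22 (adjusted p = 0.209). Of 5 genes of the NFE2L1 pathway none passed either, with Nfe2l1 itself at -0.03 ± 0.13 and 411 CPM on average in positive against 421 CPM in negative libraries. None of 6 ubiquitin and activating-enzyme genes passed. Of 14 ubiquitin receptors and cofactors of VCP, 1 rose in the paired fit, Zfand2a, a stress-induced partner of the proteasome (0.77 ± 0.15, adjusted p = 0.0199, edgeR). Of 16 cytosolic chaperones 3 rose and none fell: Hspa1a (0.67 ± 0.17, adjusted p = 0.0485), Hspa1b (0.90 ± 0.17, adjusted p = 0.0161) and Dnajb1 (0.74 ± 0.15, adjusted p = 0.0227, edgeR). In the same list Hsph1 (0.10), Hspb1 (0.11), Bag3 (0.17) and Hsp90aa1 (-0.03) did not pass, and 8 of the 16 lay below 0. Of 14 interferon and antigen presentation genes, Irf1 and Ifit1 rose and Ifit3 fell. No gene of these lists passed in the unpaired fit.

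Markers of nephron segments moved with the Tomato groups in the paired fit. All 8 principal cell markers rose, and 5 of 6 thick ascending limb, 4 of 6 distal convoluted tubule, 2 of 6 intercalated cell and 4 of 12 proximal tubule markers fell. In the same fit 1 of 5 leukocyte markers rose, and 0 of 7 endothelial, 0 of 6 fibroblast and pericyte and 0 of 4 podocyte markers passed in either direction. In the unpaired fit 1 of 8 principal cell markers rose and 1 of 12 proximal tubule markers fell. No other marker passed in that fit, which called 0.595% of all genes. The markers moved with the prefix too. Higher in CKD627 than in CKD523 were 7 of 8 principal cell, 6 of 7 endothelial, 5 of 6 intercalated cell, 5 of 6 thick ascending limb, 2 of 6 distal convoluted tubule, 2 of 5 leukocyte and 1 of 6 fibroblast and pericyte markers. Lower were 11 of 12 proximal tubule markers and 1 marker each of the thick ascending limb and of leukocytes. No proximal tubule, principal cell or thick ascending limb marker was at 0 in any library, and Pvalb of the distal convoluted tubule was at 0 in at least 1. The part of this cell make-up in the members' values was not tested.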

How the data were processed

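The authors deposited 1 table of raw counts per gene for 8 libraries, made from total RNA of Tomato-positive and Tomato-negative cells. Build mm10, edgeR 3.32.1 and limma 3.46.0 are named per the submitters' processing notes; no source used here gives the counter, its strand setting or the annotation. The members and all gene lists were chosen with earlier results of these data known.

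Genes passing edgeR's filterByExpr (minimum count 10, minimum total 15) were tested with edgeR 4.0.16 (quasi-likelihood, TMM factors, R 4.3.3), with Benjamini-Hochberg adjustment over all tested genes and a threshold of 0.05. Tomato-positive minus Tomato-negative was fitted without and with a block for the identifier in the titles. Same-identifier libraries deviated together (r 0.52, 0.39, 0.37 and 0.51, each above the limit of 0.1), so the identifiers were taken to pair them. Libraries of different identifiers but the same prefix correlated about as much (0.32 to 0.55; positive CKD627_1 more with negative CKD627_2 than with its own partner), and those of different prefixes at -0.64 to -0.34, so these correlations follow the prefix. The difference between prefixes was an interaction term, and the prefixes were compared with the Tomato group as covariate. DESeq2 1.42.0 and limma-voom (limma 3.58.1), other scalings, no filter, leaving out libraries, each prefix alone and a length correction were tried. No pair of libraries within a group looked like a duplicate: the chi-square of their counts was 15.5 to 191 times its degrees of freedom.

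Named with values in every library were the catalytic subunits, the 2 members of each class with the smallest paired p, the 3 with the smallest p in each direction between prefixes (named by p), and the members with the highest and lowest paired difference; any other is said to be named for its values. Exon lengths and near copies came from GENCODE M21, and promoters from RefSeq, both on GRCm38.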

Additional observations from a re-analysis of the deposited data

Results flagged for a closer look

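Of 90 groups of 4 member values, 12 held a library far from the other 3 of its group by Dixon's test. Independent groups would give about 1 in 20, but these groups share the same 8 libraries. The test was run on members only, so no share over all genes stands beside the count. In 10 of the 12 groups the library was Tomato-negative CKD627_1, the highest of its group. That library held the highest of all 8 values for 21.5% of all tested genes. Among core members, Psma1 had 175 CPM there (the other negative libraries 108 to 114), Psma2 163 CPM (94.5 to 106), Psma6 142 CPM (90.7 to 95.3), Psmb1 195 CPM (118 to 125) and Psmb4 269 CPM (157 to 170). Among lid and base members, Psmd13 had 160 CPM (92.5 to 101), Psmd4 169 CPM (118 to 123), Psmd7 122 CPM (79.7 to 85.6) and Psmd8 233 CPM (151 to 158). Psme2b had 113 CPM (57.1 to 65.8). The sum of all members was 5501 CPM there, against 4051 to 4230 CPM in the other negative libraries. That of the core was 1978 CPM, against 1241 to 1297 CPM. The same test did not flag this library for the regulatory sum, the members' share of counts or core minus regulatory. Elsewhere, Psmb7 was highest in positive CKD523_3 at 121 CPM (the other positive libraries 109 to 111), and Psmd6 lowest in negative CKD627_2 at 73.4 CPM (103 to 107).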

How the results depend on the processing

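The members' median difference stayed below 0 in every alternative run. With the replicate block, that is paired by identifier, 0 members were called and the median was -0.27, as without it. Core minus regulatory, -0.14 in the unpaired fit, ranged from -0.20 to -0.017 leaving out 1 library each (-0.017 without negative CKD627_1), and was 0.014 in prefix CKD523 alone and -0.024 with the length correction, which was chosen after the data were seen. The paired count of 0 became 3 in CKD627 alone (Psma6, Psmb4, Psmb6; 1366 of all genes called), 2 in CKD523 alone (Psma2, Psme2; 3143 called) and 1 with DESeq2 (Psma6, adjusted p = 0.03). The prefix count of 0 became 1, Psma7 each time, with upper-quartile factors (21.4% of all genes called), without a filter (17.8%) and with DESeq2 (25.9%). It became 2 with library size only (Psma7, Psme1, against 23.4% of all genes) and 2 with the length correction (Psme4, Psma7, against 24.8%). Leaving out 1 library each it ranged from 0 to 2, against 15.3% to 21.8% of all genes, with 2 (Psma4, Psmb6) without negative CKD627_1. In the prefix comparison the median of all genes was 0.03 with TMM, 0.18 with library size only and 0.11 with upper-quartile factors, and that of members 0.06, 0.21 and 0.14. Over all genes the unpaired fit called 85, DESeq2 1000 and the paired fit 1089, where DESeq2 called 2026. Of 23 named members under the paired alternatives, 4 of 322 values passed the threshold and 10, of Psmd5, Psme1, Psme2, Psme2b and Psme4, had the other sign. The cause of these changes was not tested. With 4 libraries a group, small differences of low genes such as Psme2 and Psmc3ip are within the bounds.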
